A study of Homo sapiens with 12 samples.

Results

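DPH2, the genes of diphthamide synthesis and their protein target EEF2 were followed in RNA from TE-1 cells, a line derived from a human oesophageal cancer. The members were the 7 genes DPH1, DPH2, DPH3, DPH5, DPH6, DPH7 and EEF2, of 19771 protein-coding genes in the deposited table, found by gene name, together with the annotated transcripts of DPH2. All 7 had a mean of at least 1 FPKM (a fragment count scaled by transcript length and by the size of the library) over the 12 libraries and entered the tests. DNAJC24, also called DPH4, belongs to the same pathway and is given beside them. The 4 groups held 3 libraries each and were named OE_IFI6 (cells given a vector that overexpresses IFI6, an interferon-induced gene), OE_control (the control for that vector), sh_IFI6 (a vector that interferes with IFI6) and sh_control (its control). All cells were transfected and then cultured for 48 h in the same medium, and total RNA was sequenced as lncRNA libraries. Every group thus carried a transfected vector, and no library of untransfected cells was analysed here. Whether replicate libraries were grown as separate cultures is not stated in the labels. The p-values therefore cover the spread between these samples only, and that spread may be technical. DPH2 was chosen for its difference between OE_IFI6 and OE_control, so its values in that comparison, and in any other that uses those libraries, are given as a description with no test. The other members were chosen by pathway.

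Diphthamide is a modified histidine found in a single protein, the translation elongation factor eEF2, which moves the ribosome along the messenger RNA. It is built in steps. The iron-sulfur proteins DPH1 and DPH2 act as a pair that transfers a carboxypropyl group from S-adenosylmethionine to the histidine, DPH3 brings electrons and the J-domain protein DPH4 assists. DPH5 methylates the intermediate, DPH7 removes a methyl group that DPH5 added, and DPH6 completes the amide. Diphtheria toxin inactivates eEF2 by attaching ADP-ribose to diphthamide, and cells that lack the modification resist the toxin. RNA levels say nothing directly about the modification itself.

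The libraries had similar totals in these units, which are already scaled by library size and so do not show depth. The protein-coding genes of a library summed to between 325877 and 357145 FPKM, and between 10650 and 10987 of them reached 1 FPKM. On the first principal component the OE_control libraries lay at -30.55 to -22.2, apart from the other 9 libraries at 5.89 to 11.35. Summed FPKM of 10 heat shock genes, a list chosen with that separation known, was 1169 to 1280 in OE_IFI6, 3102 to 3289 in OE_control, 1209 to 1734 in sh_IFI6 and 1106 to 1169 in sh_control. Since all libraries that stood apart were OE_control libraries, that separation and the group cannot be told apart. IFI6 was 12.6 times higher in OE_IFI6 than in OE_control, and its level in sh_IFI6 was 0.623 times that in sh_control. Of the markers looked at, KRT8, KRT18 and SFN were abundant, whereas the epithelial gene EPCAM and the squamous keratin genes KRT5 and KRT6A were listed at 0 in every library, and CDH1, TP63 and DSG3 stayed under 0.4 FPKM.

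DPH2 (ENSG00000132768) lies on the plus strand of chromosome 1, at 43970000 to 43973369 in the deposited table, bounds that equal those of GENCODE release 29 on GRCh38. Its level was 21.2, 19.6 and 26.0 FPKM in the OE_IFI6 libraries and 5.25, 6.84 and 7.64 FPKM in the OE_control libraries. In sh_IFI6 it was 16.8, 19.7 and 25.1 FPKM, against 19.3, 21.9 and 16.2 FPKM in sh_control. The 3 OE_control libraries were the lowest of the 12, and the other 9 lay between 16.2 and 26.0 FPKM with all 3 groups overlapping. Group means were 22.3 ± 3.34 FPKM in OE_IFI6, 6.57 ± 1.22 FPKM in OE_control, 20.5 ± 4.24 FPKM in sh_IFI6 and 19.1 ± 2.87 FPKM in sh_control (SD, n = 3 each). Ordered by level, OE_IFI6, sh_IFI6 and sh_control did not differ beyond their spread, and OE_control lay below them. These are levels of RNA in bulk cells, in which fewer cells that express a gene and less RNA per cell cannot be told apart.

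**Figure D1:**
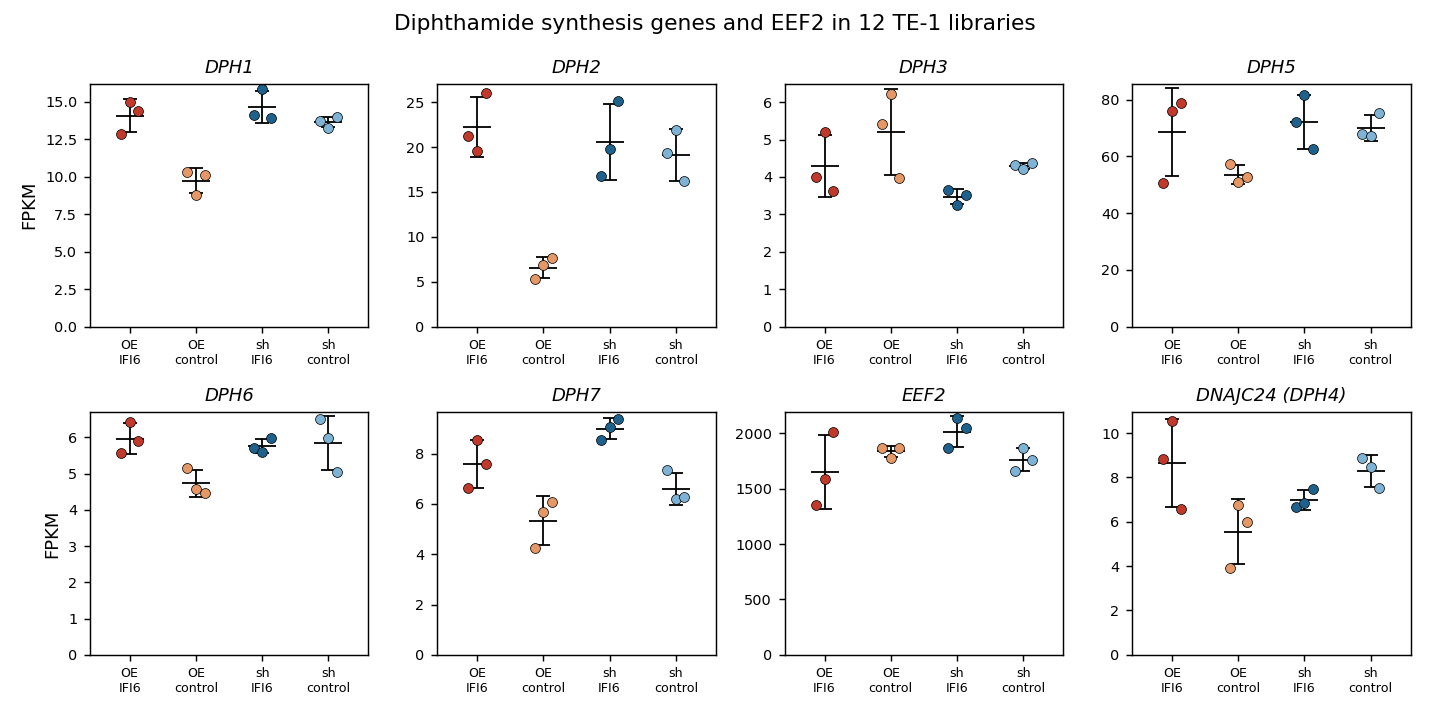
FPKM of the 7 members and DNAJC24 in each library, with 1 panel per gene and an axis from 0. Coloured points are libraries, horizontal bars are group means and whiskers are SD (n = 3). The OE_control libraries are the lowest of the 12 for DPH1, DPH2 and DPH7, whereas EEF2 overlaps between OE_IFI6 and OE_control.

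The ratio of mean levels, OE_IFI6 over OE_control, was 3.39 for DPH2, and the difference of mean log2(FPKM + 1) was 1.62. It is the value DPH2 was chosen on, and nothing is read from it. Against sh_control, DPH2 in OE_IFI6 differed by 0.21 on that scale, while OE_control differed from sh_control by -1.41. Both descriptions share libraries with the comparison that chose the gene. IFI6 itself stood at 309, 268 and 358 FPKM in OE_IFI6, at 27.3, 17.9 and 28.8 FPKM in OE_control and at 24.9, 24.1 and 21.2 FPKM in sh_control. The control groups overlapped in IFI6. They did not overlap in DPH2, nor in 30.4% of all tested genes. For DPH2 this too is a description, since the OE_control libraries were used in its choice.

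The knockdown comparison used no library that chose DPH2 and could be tested. DPH2 differed between sh_IFI6 and sh_control by 0.09 on the log2 scale (SE 0.18, 95% interval -0.30 to 0.48; limma adjusted p = 0.937, adjusted over all 10925 genes tested). The libraries of these groups overlapped, and the difference turned to -0.06 without sh_IFI6 replicate 3 and to -0.02 without sh_control replicate 3. IFI6 was at 15.1, 13.9 and 14.7 FPKM in sh_IFI6, below every sh_control library. Its own difference was -0.64 (95% interval -1.01 to -0.28, limma unadjusted p = 0.00241). It did not pass in this comparison after adjustment over all tested genes (limma adjusted p = 0.818).

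A stretch of DNA just upstream of DPH2 is shown because it holds the promoter of the gene described most fully here. It runs from the start of the RefSeq promoter window (GRCh38.p14) to the last base before the annotated start of the gene at 43970000, chr1:43969760-43969999 on the plus strand, with matches to 3 motifs in capitals.
DPH2 promoter: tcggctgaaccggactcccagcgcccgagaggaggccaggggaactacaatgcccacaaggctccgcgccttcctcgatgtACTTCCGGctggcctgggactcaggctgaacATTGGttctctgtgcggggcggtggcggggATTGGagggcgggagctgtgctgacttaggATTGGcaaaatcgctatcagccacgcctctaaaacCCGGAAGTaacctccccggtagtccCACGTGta
The motifs were searched on both strands in the window of 250 bases before to 50 after the RefSeq start, and none of the matches overlap. The ETS-type motif CCGGAAGT had 2 matches in DPH2, the E-box CACGTG 1 and the CCAAT box, read as ATTGG, 3. Of 34796 RefSeq promoters of the same length, 4.13% held CCGGAAGT, 7.2% held CACGTG and 34.6% held ATTGG. No other member held CCGGAAGT or CACGTG in its window, and DPH3 held ATTGG 2 times. The heat shock element, a spaced repeat of inverted GAA units held by 0.491% of promoters, and TGATGNAA, held by 3.63%, matched in none of the members' windows. TATAAA, held by 11.6%, matched 1 time, in EEF2. DPH1 and DPH7 each had 2 windows and the other members 1. A match describes the letters only.

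DPH1, the partner of DPH2 in the first step, passed in the fit of all 12 libraries, and no other tested member did. Its level was 12.9, 15.0 and 14.4 FPKM in OE_IFI6, against 10.3, 8.80 and 10.1 FPKM in OE_control. It was 14.1, 15.9 and 13.9 FPKM in sh_IFI6 and 13.7, 13.3 and 14.0 FPKM in sh_control. As for DPH2, the OE_control libraries were the 3 lowest, and the other 9 lay between 12.9 and 15.9 FPKM. DPH1 rose by 0.49 on the log2 scale in OE_IFI6 against OE_control (SE 0.11; limma adjusted p = 0.0169), a ratio of means of 1.45. That call ended without OE_IFI6 replicate 2 (limma adjusted p = 0.0572) and in a fit of only the libraries compared (limma adjusted p = 0.155). OE_control was lower than sh_control by a similar amount (log2 -0.45, limma adjusted p = 0.026), with the OE_control libraries shared between both comparisons. That second call ended without either of OE_control replicates 2 and 3 or any of the sh_control libraries, under median-of-ratios scaling or quantile normalization, and in a fit of only the libraries compared (limma adjusted p = 0.0525 to 0.09 over these). Between sh_IFI6 and sh_control DPH1 differed by 0.09 (limma adjusted p = 0.877). DPH1 overlaps OVCA2 on the same strand, and the sources used here do not say how reads of overlapping genes were split.

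DPH3 and DNAJC24, which assist the first step, did not pass in any comparison. DPH3, which also serves the tRNA-modifying Elongator complex, had 4.0, 5.21 and 3.63 FPKM in OE_IFI6 and 5.41, 6.22 and 3.97 FPKM in OE_control. Here OE_control was not the low group, and the libraries overlapped (log2 -0.23, limma adjusted p = 0.407). In sh_IFI6 the DPH3 level was 3.65, 3.25 and 3.53 FPKM, against 4.32, 4.21 and 4.37 FPKM in sh_control. These groups did not overlap, yet the difference of -0.24 did not pass (limma adjusted p = 0.818). The pseudogene copy DPH3P1 had 0.514 to 3.64 FPKM, and the split of reads between it and DPH3 is uncertain. DNAJC24 had 8.82, 10.5 and 6.56 FPKM in OE_IFI6, against 3.93, 6.76 and 5.99 FPKM in OE_control. One OE_IFI6 library lay below the highest OE_control library, and the difference of 0.56 did not pass (limma adjusted p = 0.0903), except without OE_IFI6 replicate 3 (0.72, limma adjusted p = 0.0383). It was 6.65, 6.83 and 7.48 FPKM in sh_IFI6 and 8.88, 8.49 and 7.51 FPKM in sh_control, without overlap (log2 -0.22, limma adjusted p = 0.838). DNAJC24 overlaps IMMP1L on the opposite strand, and whether strand was used in counting is not given.

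The enzymes of the later steps were DPH5, DPH7 and DPH6, and none passed. DPH5, which encodes the methyltransferase, had the highest mean FPKM among the enzyme genes of the pathway. Its level was 50.6, 76.0 and 78.7 FPKM in OE_IFI6 and 57.2, 50.9 and 52.6 FPKM in OE_control. OE_IFI6 replicate 1 lay below all OE_control libraries and the other OE_IFI6 libraries lay above them. The difference of 0.32 did not pass (limma adjusted p = 0.251), whereas without OE_IFI6 replicate 1 it was 0.52 (limma adjusted p = 0.0392). In the knockdown DPH5 had 72.1, 81.7 and 62.7 FPKM in sh_IFI6 and 67.7, 67.1 and 75.2 FPKM in sh_control, with a difference of 0.04 (limma adjusted p = 0.977). DPH7, which removes the methyl group, had 6.62, 8.54 and 7.59 FPKM in OE_IFI6, against 4.24, 5.69 and 6.09 FPKM in OE_control, and the groups did not overlap. The OE_control libraries were the 3 lowest of the 12 here as well, the lowest of the other 9 being at 6.19 FPKM. The difference of 0.44 did not pass (limma adjusted p = 0.0741). In sh_IFI6 it was 8.56, 9.06 and 9.37 FPKM, against 7.35, 6.19 and 6.28 FPKM in sh_control, again without overlap. That difference of 0.40 had the smallest unadjusted p of the members in the knockdown (limma unadjusted p = 0.0142; adjusted p = 0.818). So DPH7 had higher values where IFI6 was raised and where it was lowered, each against its own control, and neither difference passed. DPH6, the amide-forming enzyme, had 5.57, 6.44 and 5.90 FPKM in OE_IFI6 and 5.17, 4.57 and 4.48 FPKM in OE_control. These groups did not overlap, and the difference of 0.28 did not pass (limma adjusted p = 0.164). DPH6 was 5.70, 5.60 and 6.0 FPKM in sh_IFI6 and 6.51, 5.99 and 5.04 FPKM in sh_control, with a difference of -0.01.

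EEF2 (ENSG00000167658, chromosome 19, 3976056 to 3985463 in the deposited table) encodes the protein that carries diphthamide. Its RNA had a far higher FPKM than that of the modifying enzymes, and protein was not measured. Its level was 1353, 1593 and 2012 FPKM in OE_IFI6 and 1867, 1782 and 1872 FPKM in OE_control. The OE_IFI6 libraries spread on both sides of the tightly grouped OE_control libraries, and the difference of -0.17 did not pass (95% interval -0.46 to 0.11; limma adjusted p = 0.461). In the knockdown EEF2 was 1866, 2136 and 2046 FPKM in sh_IFI6 and 1663, 1866 and 1764 FPKM in sh_control. That difference was 0.19 (95% interval -0.09 to 0.47; limma adjusted p = 0.823). OE_control had the lowest group mean for DPH1, DPH2, DPH5, DPH6, DPH7 and DNAJC24, but not for EEF2 or DPH3. Its libraries were the 3 lowest of the 12 for DPH1, DPH2 and DPH7 only.

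**Figure D2:**
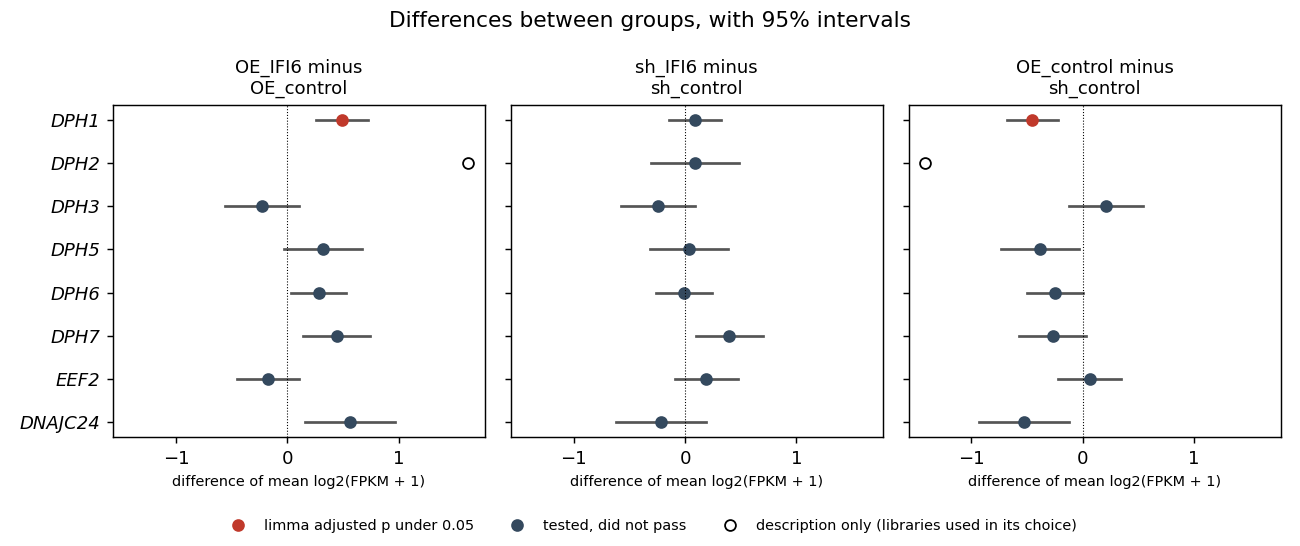
Differences of mean log2(FPKM + 1) for each member and DNAJC24 in 3 comparisons, with limma 95% intervals as lines. Filled red points passed the adjusted p of 0.05, filled dark points did not, and open points are DPH2 in the comparisons that share libraries with its choice. DPH1 is the one red point in OE_IFI6 minus OE_control, at 0.49, and in OE_control minus sh_control, at -0.45, and none is red in sh_IFI6 minus sh_control.

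Counted over the members, 1 of 6 other than DPH2 passed between OE_IFI6 and OE_control, where 7.66% of all tested genes passed. The groups did not overlap for 3 of these 6 members, DPH1, DPH6 and DPH7, against 23.3% of all tested genes. The median difference of these 6 members was 0.30, and that of all tested genes 0.05. Between OE_control and sh_control 1 of the 6 passed, where 7.52% of all genes did, and 3 of 6 did not overlap, against 30.4% of all genes, with the OE_control libraries in both comparisons. Between sh_IFI6 and sh_control 0 of 7 passed by limma, as did 0 of all tested genes (0%), and 1 of the 7, DPH7, had an unadjusted p under 0.05. Over all genes 563 (5.15%) had such an unadjusted p. In that comparison 2 of 7 members did not overlap, against 19.1% of all genes. Between OE_IFI6 and sh_control 0 of the 6 members other than DPH2 passed by limma, where 0.0183% of all genes did, and their differences lay between -0.11 for EEF2 and 0.17 for DPH7. The groups did not overlap for 0 of the 6, against 9.54% of all genes. At an unadjusted p under 0.05, 0 of the 6 and 503 of all genes (4.6%) were found there. The effect of overexpression minus the effect of knockdown passed for 0 of the 6 members other than DPH2, where 2.69% of all genes passed, and was 0.40 for DPH1 (limma adjusted p = 0.18).

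DPH2 had 17 annotated transcripts in the deposited table, of which GENCODE release 29 calls 3 protein coding, 6 targets of nonsense-mediated decay (the pathway that destroys messages with early stop codons), 5 retained introns and 3 processed transcripts. Of these, 2 were listed at 0 in every library and 3 had a mean of at least 1 FPKM. The protein-coding DPH2-201 averaged 8.44 FPKM over the 12 libraries, the decay target DPH2-209 averaged 3.99 FPKM and the retained-intron form DPH2-216 averaged 1.28 FPKM. DPH2-201 was the highest transcript in 10 libraries, and DPH2-209 was the highest in the other 2, OE_IFI6 replicate 3 and sh_control replicate 1.

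**Figure D3:**
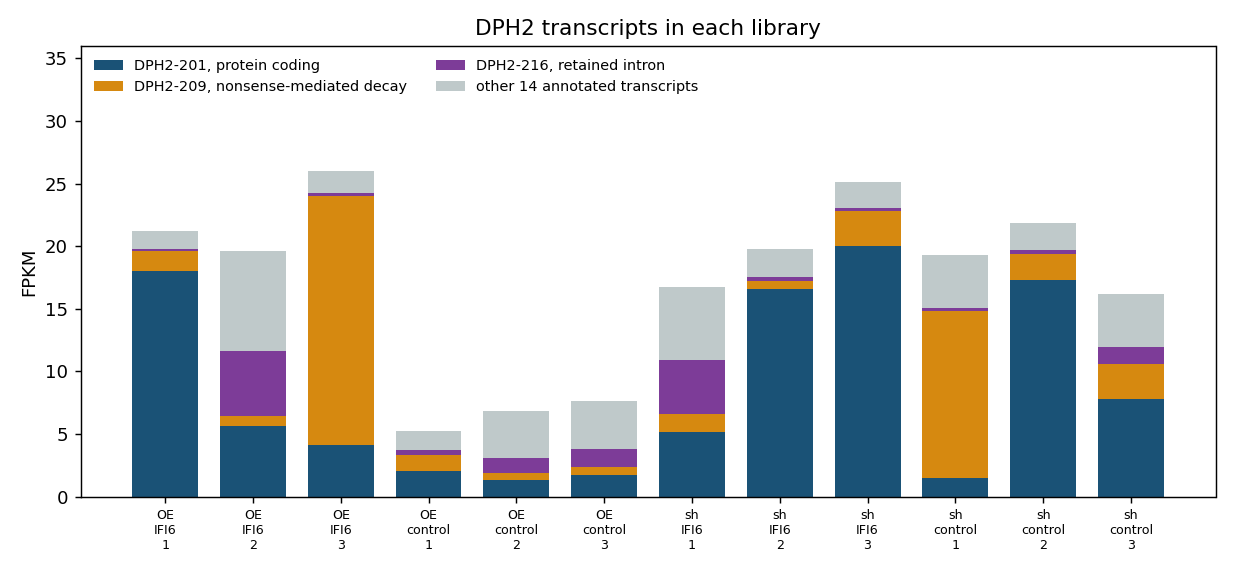
FPKM of DPH2 transcripts stacked for each of the 12 libraries, with the 14 less abundant ones summed. OE_control bars are the shortest, and the blue (DPH2-201) and orange (DPH2-209) parts trade places in OE_IFI6 replicate 3 and sh_control replicate 1.

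Both leading transcripts span the same 6 exons and share exons 2 to 6. DPH2-201 is 2472 bases long and DPH2-209 is 2414. They differ in exon 1, where DPH2-209 lacks the last 52 bases of the exon, all coding in DPH2-201, and begins 6 bases later in GENCODE release 29. The deposited table starts both at 43970010, and the bounds of the other 16 transcripts equal those of the release. Since 52 leaves a remainder of 1 after division by 3, the reading frame shifts. The end of exon 1 of DPH2-201, chr1:43970251-43970322 on the plus strand (GRCh38, GENCODE release 29), is shown because reads over it are among the few that separate these transcripts, with the 52 bases absent from DPH2-209 in capitals.
DPH2-201 exon 1 end: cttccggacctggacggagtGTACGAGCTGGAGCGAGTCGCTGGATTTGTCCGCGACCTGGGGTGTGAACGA

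**Figure D4:**
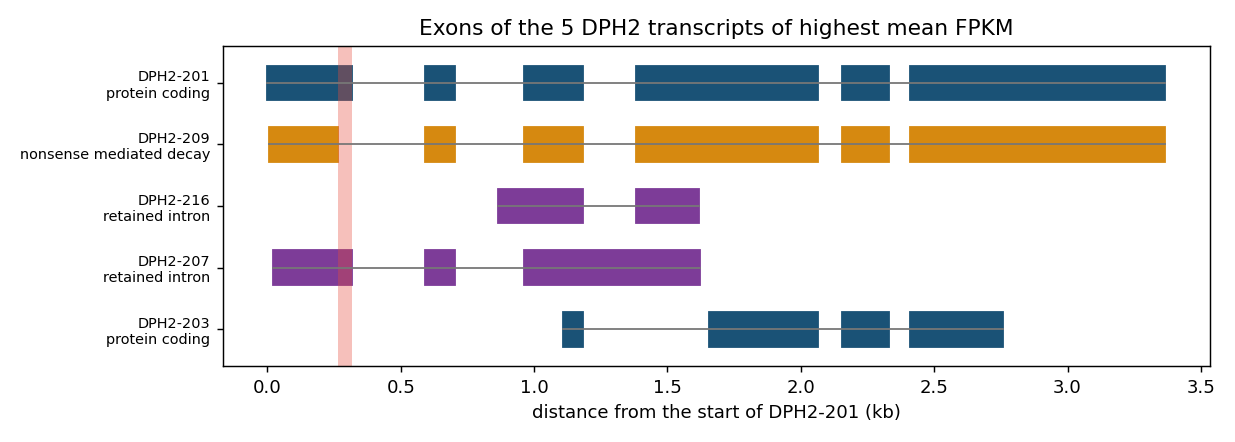
Exons (boxes) of the 5 DPH2 transcripts of highest mean FPKM, drawn to scale by distance in kilobases from the start of DPH2-201 in GENCODE release 29, with introns as lines. Blue is protein coding, orange a target of nonsense-mediated decay and purple a retained intron. The red band marks the 52 bases of exon 1 that DPH2-209 lacks.

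The assignment between these transcripts varied widely within groups. DPH2-201 took 85.0%, 28.9% and 15.8% of the gene's FPKM in OE_IFI6, and 39.9%, 19.8% and 22.2% in OE_control. It took 30.6%, 84.1% and 79.6% in sh_IFI6 and 7.71%, 78.9% and 48.2% in sh_control. In the knockdown its share was 19.8 percentage points higher in sh_IFI6 (two-sided exact permutation p = 0.5, where 3 against 3 libraries allow no p below 0.1). DPH2-201 and DPH2-209 together took 92.5%, 32.9% and 92.3% in OE_IFI6, 64.1%, 27.9% and 31.2% in OE_control, 39.2%, 87.2% and 90.9% in sh_IFI6 and 76.8%, 88.5% and 65.8% in sh_control. The share of the pair, an addition made after the data were seen, was 4.61 points lower in sh_IFI6 than in sh_control (-4.61, exact permutation p = 0.9). OE_IFI6 replicate 2 and sh_IFI6 replicate 1 had more of the short DPH2-216, at 26.3% and 26.1%.

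A gene's FPKM here is the sum of its transcripts' FPKM, so a fragment assigned to a short transcript adds more than one assigned to a long transcript. Each transcript's FPKM was therefore multiplied by its length in kilobases (kb) and summed, with all 17 transcripts of the gene included. The sum, in FPKM times kb and so not on the scale of the gene's FPKM, was 49.7, 27.4 and 59.9 in OE_IFI6. It was 9.96, 9.28 and 10.5 in OE_control, 25.7, 44.5 and 58.2 in sh_IFI6 and 40.2, 49.8 and 31.1 in sh_control. The OE_control libraries were the 3 lowest on this measure, and the other 9 lay apart from them. The measure uses the libraries on which DPH2 was chosen, so this is a description only. The ratio of means was 4.61 for OE_IFI6 over OE_control and 1.06 for sh_IFI6 over sh_control. In genes with a single transcript, a part of the low values fell on regular steps. If 1 step stands for 1 fragment, DPH2 rested on 302, 280 and 358 fragments in OE_control and on 861 to 1955 in the other 9 libraries. Since just 12.2% to 46.1% of those low values came within 1% of a whole number of steps, fragment counts could not be recovered and these are estimates. For DPH1 the length-weighted sum, again in FPKM times kb, was 25.1, 25.2 and 26.7 in OE_IFI6. In OE_control it was 20.6, 11.8 and 12.6, a ratio of means of 1.71. For DPH7 the transcripts with a known length held 85.45% of its FPKM. On their length-weighted sum OE_control replicate 3, at 8.04, lay above sh_control replicate 2, at 7.66. The OE_control libraries were thus not the 3 lowest for DPH7 on this measure.

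Transcript by transcript, 0 of the 24 tested transcripts of the other members and DNAJC24 passed between OE_IFI6 and OE_control by limma, where 1.16% of all 28221 tested transcripts did, and 1 of the 24 had an unadjusted p under 0.05, against 13.2% of all. Between sh_IFI6 and sh_control 0 of 27, DPH2 transcripts included, passed, where 0.0283% of all did, and 3 of the 24 that are not of DPH2 had an unadjusted p under 0.05, against 5.16% of all. DPH2-201 differed by 0.83 (SE 0.76) and DPH2-209 by -1.17 (SE 0.88) between sh_IFI6 and sh_control (limma adjusted p = 0.928 for both). EEF2 and DPH6 each had a dominant transcript: EEF2-201 took 94.1% to 95.7% of its gene and DPH6-201 took 82.7% to 95.9%. In DPH5, by contrast, DPH5-209 was listed at 0 in sh_control replicates 1 and 2 and had 15.6 FPKM in replicate 3, while DPH5-204 had 20.6, 18.9 and 0.078 FPKM there. DPH5-204 was at 0.0605 to 0.407 FPKM in the libraries of the other groups. DPH1-205 likewise took 65.0%, 8.06% and 0% of its gene in the OE_control libraries.

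The neighbourhood of DPH2 was compared to see whether genes beside it had the same profile. IPO13, an importin gene that ends before DPH2 (43946950 to 43968022), had 16.1, 14.7 and 17.3 FPKM in OE_IFI6 and 15.8, 13.7 and 14.4 FPKM in OE_control, with a difference of 0.12 (limma adjusted p = 0.527). ATP6V0B, a subunit of the vacuolar proton pump that begins after DPH2 (43974487 to 43978295), had 209, 138 and 214 FPKM in OE_IFI6, against 261, 228 and 240 FPKM in OE_control. It was lower in every OE_IFI6 library, the direction opposite to DPH2, and the difference of -0.40 did not pass (limma adjusted p = 0.203). The antisense gene AL357079.2 spans DPH2 on the opposite strand (43968351 to 43974821). It had 1.19, 1.29 and 1.56 FPKM in OE_IFI6, against 0.526, 0.711 and 0.562 FPKM in OE_control, 1.37, 1.30 and 1.53 FPKM in sh_IFI6 and 1.47, 1.11 and 1.37 FPKM in sh_control. Its OE_control libraries were also the 3 lowest, and without knowledge of strand its reads and those of DPH2 cannot be told apart.

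The protein-coding genes whose log2(FPKM + 1) followed that of DPH2 most closely over the 12 libraries were KLF2 (Pearson r = 0.969), NELFCD (0.966), RRAGB (0.965), CABLES1 (0.962) and APTX (0.960), of 10924 ranked. KLF2 encodes a transcription factor, NELFCD a subunit of the negative elongation factor of RNA polymerase, RRAGB a Rag GTPase that signals amino acids to mTOR, CABLES1 a regulator of cyclin-dependent kinases and APTX a DNA repair enzyme. These correlations describe libraries that share the separation of OE_control. Over the 9 libraries without OE_control they were 0.763, 0.560, 0.668, 0.332 and 0.610 in the same order. KLF2 had 1.48, 1.27 and 1.95 FPKM in OE_IFI6, against 0.325, 0.445 and 0.512 FPKM in OE_control. NELFCD had 32.9, 36.9 and 49.8 FPKM in OE_IFI6, against 16.7, 18.9 and 21.6 FPKM in OE_control. In sh_IFI6 against sh_control the 5 genes differed by -0.12 for KLF2 to 0.03 for NELFCD, and none passed by limma. Among the members DPH1 ranked 217 (r = 0.872), DPH6 and DPH7 had 0.768 each, and DPH5 had 0.596. EEF2 had -0.02 and DPH3 -0.65, and DNAJC24 beside them had 0.694. Over the 9 libraries DPH1 had -0.10, DPH6 0.374, DPH7 0.177 and DPH5 -0.204. EEF2 had 0.256, DPH3 -0.31 and DNAJC24 -0.0755 there.

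**Figure D5:**
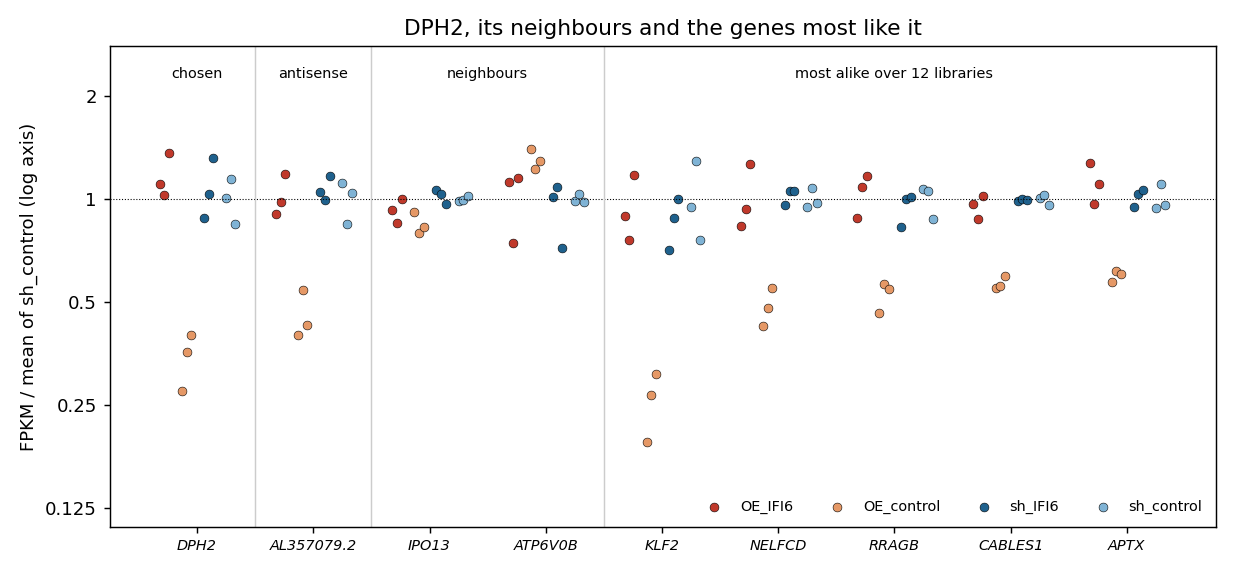
FPKM of DPH2, of the antisense gene AL357079.2, of its neighbours IPO13 and ATP6V0B and of the 5 genes most like DPH2, divided by each gene's mean in sh_control, on a log axis. Each point is a library. OE_control lies at 0.274 to 0.399 for DPH2 and at 0.400 to 0.541 for AL357079.2, whereas it lies at 0.795 to 0.917 for IPO13 and at 1.23 to 1.40 for ATP6V0B.

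Of 8 tested genes that modify eEF2 or eEF1A, 2 rose between OE_IFI6 and OE_control and 0 fell, where 4.1% of all tested genes rose and 3.56% fell. The list median was 0.20, against 0.05 for all genes. EEF2K, the kinase that inhibits eEF2, had 17.8, 15.1 and 23.5 FPKM in OE_IFI6, against 7.14, 10.1 and 13.4 FPKM in OE_control. In sh_IFI6 EEF2K had 17.9, 19.3 and 26.6 FPKM and in sh_control 22.9, 19.3 and 19.5 FPKM, so OE_control was again the lowest group. EEF2K differed by 0.84 (limma adjusted p = 0.04) between OE_IFI6 and OE_control, a call lost without either of OE_IFI6 replicates 1 and 3 or OE_control replicates 1 and 2, and with no filter on low values (limma adjusted p = 0.0677 to 0.122). Between OE_control and sh_control it differed by -0.98 (limma adjusted p = 0.0214), and that call ended without OE_control replicate 1 or any sh_control library (limma adjusted p = 0.0567 to 0.0773). EEF2KMT, the methyltransferase of a lysine in eEF2, differed by 0.44 (limma adjusted p = 0.0492), a call that ended without any 1 of the 6 libraries compared (limma adjusted p = 0.0587 to 0.113), under both other scalings, with no filter and with a robust prior (limma adjusted p = 0.051 to 0.114 over these). Of 12 elongation factor genes 0 rose and 1 fell, the GTPase gene GTPBP1 (log2 -0.52, limma adjusted p = 0.0369), with a list median of -0.03. The GTPBP1 call ended without OE_IFI6 replicates 1 or 2 or OE_control replicates 2 or 3 (limma adjusted p = 0.082 to 0.122).

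Genes that supply the pathway were counted against the 7.66% of all tested genes that passed between OE_IFI6 and OE_control and their median of 0.05. Of 9 genes of cytosolic iron-sulfur assembly, which provide the clusters of DPH1 and DPH2, 0 passed by limma in OE_IFI6 against OE_control (median 0.12), as did 0 of 7 Elongator genes (median 0.14), 0 of 4 cytochrome b5 reductase genes, whose yeast relative reduces Dph3 (median 0.18), and 0 of 2 hypusine enzymes (median -0.03). Of 5 genes of S-adenosylmethionine supply 1 rose, MAT2B, which encodes the regulatory subunit of methionine adenosyltransferase. MAT2B had 32.5, 29.6 and 22.3 FPKM in OE_IFI6, against 16.4, 18.9 and 15.8 FPKM in OE_control (log2 0.68, limma adjusted p = 0.0245), and the call ended without OE_IFI6 replicates 1 or 2 or OE_control replicates 1 or 3 (limma adjusted p = 0.065 to 0.0843). In sh_IFI6 against sh_control 0 genes of any of these lists passed by limma, as did 0 of all tested genes.

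Of 4 genes that act in the entry of diphtheria toxin, 2 fell in OE_IFI6 against OE_control and 0 rose, where 3.56% of all tested genes fell and 4.1% rose. The list median was -0.42, against 0.05 for all genes, and 4 genes are too few to read a share from. HBEGF, which encodes the toxin's receptor, had 0.915, 1.06 and 1.05 FPKM in OE_IFI6, against 1.74, 2.31 and 2.41 FPKM in OE_control. Its level was 1.41, 0.862 and 1.65 FPKM in sh_IFI6 and 1.14, 1.14 and 0.958 FPKM in sh_control. HBEGF fell by 0.65 on the log2 scale (limma adjusted p = 0.0172), a call that ended without OE_IFI6 replicate 1 or OE_control replicate 3 (limma adjusted p = 0.056 and 0.0643). ANXA1, an annexin reported to meet the toxin inside the cell, had 126, 171 and 110 FPKM in OE_IFI6, against 277, 254 and 213 FPKM in OE_control (log2 -0.88, limma adjusted p = 0.00637). In sh_control ANXA1 had 127, 123 and 119 FPKM, so the OE_control libraries were the highest for both genes, the reverse of DPH2. In a fit of only the libraries compared, none of the OE_IFI6 against OE_control calls of EEF2K, EEF2KMT, GTPBP1, MAT2B, HBEGF and ANXA1 held (limma adjusted p = 0.0644 to 0.218). All these lists were chosen with earlier results of these data known, and the part of the OE_control separation in their counts was not tested.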

How the data were processed

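RNA was measured in 12 libraries, 3 in each of 4 groups read from the sample titles. The authors deposited FPKM for genes and transcripts, normalized to transcript length and mapped fragments. Per the submitters' processing notes the tools were HISAT2, StringTie, Cuffdiff and edgeR, with no version or role given; build, annotation release and use of strand were not in the sources used here. The deposited bounds of DPH1, DPH2, DPH5 and DPH6 equal those of GENCODE 29 (GRCh38), the transcript DPH2-201 starts 6 bases later than there, and coordinates are as deposited. Columns of other samples numbered 0.

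Limma 3.58.1 (R 4.3.3) fitted log2(FPKM + 1) of the 10925 protein-coding genes (28221 transcripts) with a mean of at least 1 FPKM, in 1 group-means model over the 12 libraries with a trended prior (8 residual degrees of freedom). Tests were two-sided with Benjamini-Hochberg adjustment over all features, and "rose" or "fell" means an adjusted p under 0.05. Because 1 is added before the logarithm, differences of weakly expressed genes come out too small. Depth in reads was unknown, so no count test was run.

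The members, the gene lists and the choice of DPH2 were made with earlier results of these data known. Every member and DNAJC24 is named whatever its values, as are list genes that passed, the neighbours of DPH2 and the 5 genes of highest Pearson correlation with it. Sequences are from RefSeq (GRCh38.p14) and GENCODE 29. Alternatives were other pseudocounts, filters, scalings, priors and tables, a replicate block and leaving out each library.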

Additional observations from a re-analysis of the deposited data

Results flagged for a closer look

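The effect of overexpression minus the effect of knockdown was 4.27 on the log2 scale for IFI6 (limma adjusted p = 3.77e-06), since IFI6 was higher in OE_IFI6 than in OE_control (3.62) and lower in sh_IFI6 than in sh_control (-0.64). No member other than DPH2 passed that test, and groups of 3 libraries were too small to look for single outlying libraries.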

How the results depend on the processing

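In a fit of only the libraries compared, 167 genes were called between OE_IFI6 and OE_control in place of 837, 1 between sh_IFI6 and sh_control in place of 0, 429 between OE_control and sh_control in place of 822, and 5 between OE_IFI6 and sh_control in place of 2. For OE_IFI6 against sh_control the count was also 1 with a mean of at least 5 FPKM and 4 in the table of all annotated genes. Leaving out 1 library gave 503 to 859 genes between OE_IFI6 and OE_control, 0 to 1 between sh_IFI6 and sh_control, 319 to 769 between OE_control and sh_control, 2 to 5 between OE_IFI6 and sh_control and 123 to 518 for the difference of the effects, in place of 294. Called transcripts numbered 328 between OE_IFI6 and OE_control, 162 with no filter and 163 to 263 with 1 library left out. They numbered 8 between sh_IFI6 and sh_control, 3 with a pseudocount of 0.1, 36 with no filter and 14 to 28 with 1 library left out. The cause of these shifts was not tested.

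The labels do not say that replicate numbers pair the samples, and not every same-numbered pair correlated above 0.1 in its deviations, so no pairing was assumed. Between OE_IFI6 and OE_control same-numbered libraries correlated by 0.0872 to 0.254 and differently numbered ones by -0.15 to 0.0305, so every library correlated best with its own number, a hint from the data. Between sh_IFI6 and sh_control the ranges were -0.0432 to -0.00953 and -0.0234 to 0.0551. With the replicate number as a block, 802 genes were called between OE_IFI6 and OE_control and 0 between sh_IFI6 and sh_control, and called transcripts numbered 147 and 3. DPH1 kept its call between OE_IFI6 and OE_control under the block (limma adjusted p = 0.0328), and EEF2KMT lost it (0.054).

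The DPH2 difference between OE_IFI6 and OE_control was 1.90 with length-weighted transcripts, a setting added after the data were seen. For it the weighted sum was divided by the length of DPH2-201 before the logarithm. In sh_IFI6 against sh_control small differences changed sign. With 1 library left out they ranged from -0.0575 to 0.22 for DPH2, from -0.0546 to 0.13 for DPH5, from -0.10 to 0.0588 for DPH6 and from -0.29 to 0.76 for DPH2-216. With quantile normalization DPH5 was at -0.00745 and DPH6 at 0.0245. The DPH2-201 share difference of 19.8 points became -4.61 for DPH2-201 and DPH2-209 together, a sum that contains the other transcript. In OE_IFI6 against sh_control, leaving out 1 library gave -0.00495 to 0.10 for DPH1 and -0.26 to 0.0226 for EEF2. Values under about 1 FPKM, such as most DPH2 transcripts, rest on few fragments.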
